A study of Mus musculus with 10 samples.

Results

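Etv1, Etv4 and Etv5 form the PEA3 group of ETS transcription factors, and their transcripts were measured in the mouse left atrium after pressure overload. The 3 genes were taken by symbol from the count tables, with earlier results of these data known. They are 3 of the 48397 gene symbols counted. Both groups were wild-type mice, operated at 2 months of age and sampled 2 weeks later, and the design text adds that they were males of the C57BL/6J strain. The TAC group (5 libraries) had transverse aortic constriction, a narrowing of the aortic arch that raises the pressure against which the heart pumps, and the Sham group (5 libraries) had the control operation. The labels name no transgene or drug for either group. The sources name the tissue both as left atrium and as left appendage and name 2 different library kits, and no source says that each library came from its own animal, so the p-values below measure the spread between these libraries.

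PEA3 factors bind DNA through the ETS domain and become activators when receptor tyrosine kinases, such as the EGF and FGF receptor families, signal through RAS and the kinase ERK. They are held low at several levels: the repressor Capicua (Cic) silences their genes until ERK relieves it, and the COP1 ubiquitin ligase marks their proteins for destruction. In the heart Etv1 is known as a neuregulin-responsive factor of the fast-conducting tissue, the pectinate muscles of the atrium and the Purkinje fibres, where it supports expression of connexin 40 (Gja5).

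The start-site windows of Etv1 and Etv5 are shown because the known repressor and the family's own preferred word can be looked for in their letters. RefSeq windows on GRCm38.p6, running from 250 bases before to 50 after a gene's start, were held for 2 of the 3 members, 4 windows in all. Searched on both strands were the PEA3 word AGGAAGT, and the Capicua words TGAATGA, the word TGAATGG, the word TCAATGA and the word TCAATGG; no word overlaps another in the hits given. These words were chosen with the sequences in view. One window of each gene is printed, the one that held a word, from 5′ to 3′ on the gene's strand, with every match in capitals (chr12:38779832-38780131, plus strand, for Etv1 and chr16:22438319-22438618, minus strand, for Etv5).
Etv1 first window: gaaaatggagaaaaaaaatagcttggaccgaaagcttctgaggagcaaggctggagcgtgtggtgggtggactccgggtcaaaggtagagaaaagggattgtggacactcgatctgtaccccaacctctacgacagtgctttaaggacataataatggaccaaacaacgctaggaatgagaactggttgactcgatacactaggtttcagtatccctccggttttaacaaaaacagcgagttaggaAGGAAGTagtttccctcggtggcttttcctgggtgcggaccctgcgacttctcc
Etv5 second window: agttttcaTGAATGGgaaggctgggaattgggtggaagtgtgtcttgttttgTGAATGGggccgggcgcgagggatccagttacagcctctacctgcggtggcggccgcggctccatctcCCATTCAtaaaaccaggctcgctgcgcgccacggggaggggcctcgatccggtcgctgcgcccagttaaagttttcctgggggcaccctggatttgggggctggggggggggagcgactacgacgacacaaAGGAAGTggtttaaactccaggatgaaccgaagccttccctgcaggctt
The Etv1 window held the PEA3 word once, at bases 247 to 253, across the start itself, and had a GC content of 48.7%. The Etv5 window held it once, beginning 1 base after the start, and also held 3 Capicua words: the word TGAATGG at bases 9 to 15 and at 53 to 59, and its reverse form CCATTCA at 121 to 127. Of all 32851 RefSeq windows of this length, 9.35% held the PEA3 word, 11.4% held at least 1 Capicua word and 0.140% (46 windows) held 3 or more. The other two windows, the Etv1 one at chr12:38783461-38783760 and the Etv5 one at chr16:22439521-22439820, held neither. A match describes the letters and shows no binding.

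The 3 members did not move together: Etv1 was lower in TAC, and Etv4 and Etv5 were higher. Levels are CPM, the count of a gene relative to the library's total and scaled with TMM, a factor per library that sets the bulk of genes level between libraries, and differences are log2 fold changes, TAC over Sham, with their standard error (SE). A gene was called at an adjusted p under 0.05 in edgeR's quasi-likelihood test with Benjamini-Hochberg adjustment over the 15175 genes tested. Calls were common here. Of the tested genes 28.9% were called higher in TAC and 27.9% lower, and the CPM of the groups did not overlap for 21.5% on the higher side and 20.2% on the lower side. All 3 members were called and none had overlapping groups, and against these shares that is not particular to them. The list counts below stand against the same shares, and no list was tested as a set. The median difference over all tested genes was 0.01 on the log2 scale, and 0.37 when libraries were scaled by their total count alone.

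Etv1 (ENSMUSG00000004151.17, chromosome 12, 38779380 to 38870484, plus strand, 13 annotated transcripts) had the highest CPM of the 3 members in Sham and lay between Etv5 and Etv4 in TAC. Its level was 26, 17.8, 24.3, 22.6 and 17.9 CPM in Sham libraries 1 to 5 and 16.3, 11.6, 14.5, 12.7 and 12.8 CPM in TAC libraries 1 to 5. Every TAC library was below every Sham library, though the gap between 17.8 and 16.3 CPM was narrow. The means were 21.7 ± 3.74 (SD, n = 5) in Sham and 13.6 ± 1.82 (SD, n = 5) in TAC, and the log2 fold change was -0.68 (SE 0.13, adjusted p = 0.0010). Of all tested genes 14.9% were lower in TAC by at least this much. This call depended on the scaling. By total count alone Etv1 stood at 14.5 to 24.5 CPM in Sham and 13.3 to 17.0 in TAC, the groups overlapped, and the log2 fold change of -0.33 was not called (adjusted p = 0.058).

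Etv4 (ENSMUSG00000017724.14, chromosome 11, 101769742 to 101785371, minus strand, 12 transcripts) was close to undetected in Sham and present in every TAC library. Sham libraries 1 to 5 held 8, 0, 8, 17 and 7 reads and TAC libraries 183, 330, 143, 142 and 165, that is 40 reads in all against 963. In CPM this was 0.497, 0, 0.243, 0.438 and 0.263 in Sham and 4.23, 8.22, 4.23, 4.17 and 4.35 in TAC. TAC library 2 was thus high among its group. Sham library 2 had none, which at its depth allows up to 0.175 CPM by total count alone (3 reads, counting error only). The means were 0.288 ± 0.195 (SD, n = 5) and 5.04 ± 1.78 (SD, n = 5), and the log2 fold change was 4.06 (SE 0.42, adjusted p = 1.4e-05). Leaving out TAC library 2 gave 3.83. Only 1.15% of tested genes were higher in TAC by as much. Etv4 passed the filter on low counts through the group where it was high: 2 Sham libraries and all 5 TAC libraries were above the filter's 0.309 CPM.

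Etv5 (ENSMUSG00000013089.15, chromosome 16, 22381309 to 22439719, minus strand, 5 transcripts) was the most expressed member in TAC. It was measured at 13.5, 12.5, 12.2, 17.3 and 9.46 CPM in Sham and at 38.2, 33.6, 42.5, 35.0 and 40.4 CPM in TAC. The lowest TAC library lay well above the highest Sham library, and neither group had a library that stood apart. The means were 13.0 ± 2.84 (SD, n = 5) and 37.9 ± 3.70 (SD, n = 5), and the log2 fold change was 1.54 (SE 0.14, adjusted p = 5.8e-06). A share of 6.85% of tested genes were higher in TAC by at least this much. No other annotated gene shared exon bases with any of the 3 members, so their reads cannot be taken from an overlapping neighbour in this annotation.

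**Figure D1:**
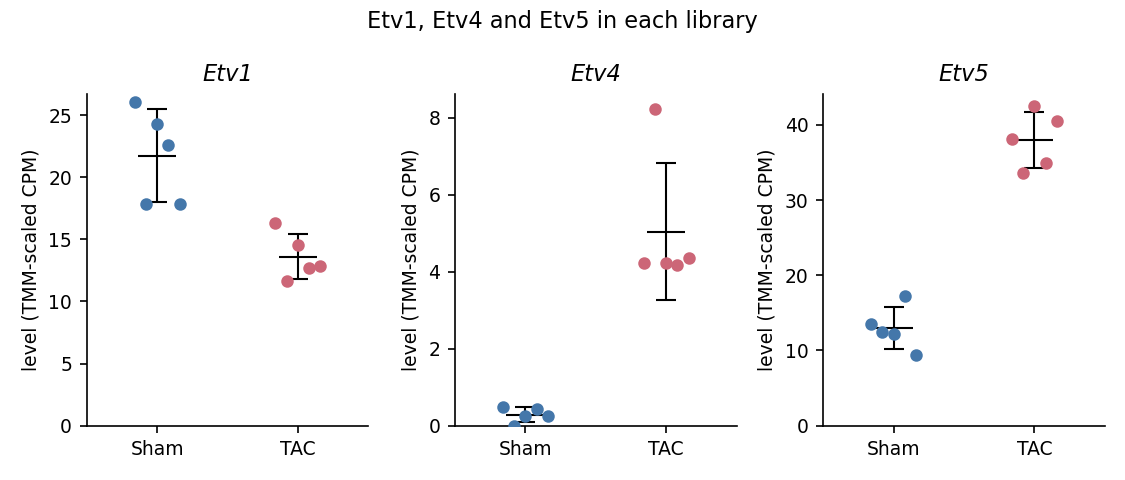
Level of Etv1, Etv4 and Etv5 (TMM-scaled CPM, linear axes from 0) in the 5 Sham and 5 TAC libraries; points are libraries, and bars show the mean and SD. Etv1 falls from a mean of 21.7 to 13.6 CPM, while Etv4 rises from 0.288 to 5.04 and Etv5 from 13.0 to 37.9.

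Compared per kilobase of coding transcript, Etv1 and Etv5 had like shares of the family's level in Sham, and Etv5 had most of it in TAC. Levels per kilobase used the longest coding transcript of each gene in GENCODE M21 (6576 bases for Etv1, 2395 for Etv4 and 3975 for Etv5). In Sham the levels were 3.30 ± 0.569 CPM per kb for Etv1, 3.27 ± 0.714 for Etv5 and 0.120 ± 0.0813 for Etv4 (SD, n = 5), so Etv1 and Etv5 did not differ beyond their spread and Etv4 was far below. In TAC Etv5 led at 9.54 ± 0.931 CPM per kb, and Etv4 at 2.11 ± 0.743 and Etv1 at 2.07 ± 0.277 did not differ beyond their spread by this length. Etv1 made up 49.6% ± 4.60 of the family's summed level per kb in Sham and 15.1% ± 1.85 in TAC (SD, n = 5). Etv5 went from 48.7% ± 4.95 to 69.5% ± 4.54, and Etv4 from 1.72% ± 1.07 to 15.4% ± 5.49. The sum itself was 6.69 ± 1.16 CPM per kb in Sham and 13.7 ± 0.795 in TAC. Which of Etv1 and Etv5 leads in Sham depended on the length used: over all exons joined, the Etv5 level was 1.95 times that of Etv1 in Sham and 9.11 times in TAC. In TAC, Etv4 then lay above Etv1 in every library comparison (1.34 to 2.65 against 0.875 to 1.22 CPM per kb), and Etv1's share was 33.7% in Sham and 8.60% in TAC.

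Ratios of 2 members inside one library do not depend on how libraries are scaled, and they separated the groups without overlap. The log2 ratio of Etv5 to Etv1 reads was -0.94, -0.52, -1.0, -0.38 and -0.92 in Sham libraries 1 to 5 and 1.23, 1.53, 1.55, 1.46 and 1.65 in TAC. Etv1 had more reads than Etv5 in every Sham library and fewer in every TAC library. The means were -0.75 ± 0.28 and 1.48 ± 0.16 (SD, n = 5), a 4.71-fold difference (exact two-sided permutation test, p = 0.0079, the smallest that regroupings of 5 against 5 can give; 0.0079 after adjustment over 6 such tests). The log2 ratio of Etv4 to Etv1 was -5.63, -9.13, -6.56, -5.65 and -5.99 in Sham and -1.94, -0.50, -1.77, -1.61 and -1.56 in TAC, a difference of 5.11 (exact permutation p = 0.0079, adjusted 0.0079). Its size rests partly on the 0.5 reads added to each count, since Sham library 2 had no Etv4 read: over the other settings tried it ran from 4.04 to 5.35, and without that library it was 4.48. Etv5 over Etv4 fell by 2.88 on the log2 scale, from 5.84 ± 1.58 to 2.96 ± 0.53 (SD, n = 5; exact permutation p = 0.0079, adjusted 0.0079), Etv4 having risen more than Etv5. Without Sham library 2 the difference was -2.19, and with 5 reads added to each count it was -1.82.

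Transcripts that mark cell types also differed between the groups, in a comparison where 28.9% of all tested genes were higher and 27.9% lower. Fewer cells of a type and less RNA per cell cannot be told apart in these bulk samples. All 9 of the 9 cardiomyocyte genes (Myl4, Myl7, Sln, Tnnt2, Tnni3, Actn2, Myh6, Ryr2 and Ttn) were lower in TAC, with a median of -1.12, and their summed level was 71894 to 85187 CPM in Sham and 28412 to 39361 in TAC. The atrial genes Myl4, Myl7 and Sln were abundant in both groups, which goes with atrial tissue. Whether it was left atrium or left appendage was not tested. Fibroblast genes were higher for 4 of 6 and lower for 1 (summed 1581 to 2108 CPM in Sham, 2897 to 7156 in TAC), macrophage genes higher for 5 of 5 (216 to 390, then 565 to 941) and mural cell genes for 3 of 5 (353 to 471, then 613 to 816). The 4 proliferation genes Mki67, Top2a, Ccnb1 and Cdk1 were all higher, from a sum of 1.99 to 17.2 CPM to 108 to 386. Erythroid genes were higher for 3 of 3 (123 to 272, then 262 to 2114) and adipocyte genes lower for 4 of 4 (21.3 to 69.7, then 0.498 to 18.8). Endothelial genes were mixed, with 2 of 5 higher and 1 lower (715 to 1030, then 699 to 943), as were Schwann cell genes, with 1 higher and 2 lower of 4 tested (8.57 to 13.5, then 4.35 to 8.57). Mesothelial genes were higher for 1 of 5 (80.2 to 294, then 121 to 297), neuronal genes lower for 1 of 2 tested (10.3 to 15.2, then 2.82 to 8.99) and ventricular genes lower for 1 of 2 tested (19.6 to 539, then 15.5 to 325). Lymphocyte genes were near 0, with none tested (0.450 to 1.18, then 0.393 to 1.25), and of the lung epithelial genes 1 was tested and not called, Sftpc having 1 read in each group (0.192 to 0.638, then 0.206 to 2.74). The part these cell types play in the levels of Etv1, Etv4 and Etv5 was not tested.

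Set against the mean log2 level of the 9 cardiomyocyte genes in its own library, Etv1 was higher in TAC. This relative level was -7.70, -8.27, -7.91, -8.02 and -8.48 in Sham and -7.53, -7.61, -7.39, -7.68 and -7.45 in TAC. The groups did not overlap, but the highest Sham library and the lowest TAC library were nearly level, at -7.70 and -7.68. The means were -8.08 ± 0.30 and -7.53 ± 0.12 (SD, n = 5), a difference of 0.54 (exact permutation p = 0.0079, adjusted 0.0079). The 9 genes themselves spread from -0.53 to -2.04 in log2 fold change. Etv1, at -0.68, was lower by less than 7 of them and by more than Tnnt2 (-0.53) and Actn2 (-0.59), so the direction holds for the list's mean and not against each of its genes. Etv5 relative to the same genes went from -8.83 ± 0.37 to -6.05 ± 0.22 (SD, n = 5; difference 2.78), and Etv4 differed by 5.66 (exact permutation p = 0.0079, adjusted 0.0079, for each). Without Sham library 2, which had no Etv4 read, the Etv4 difference was 4.97.

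**Figure D2:**
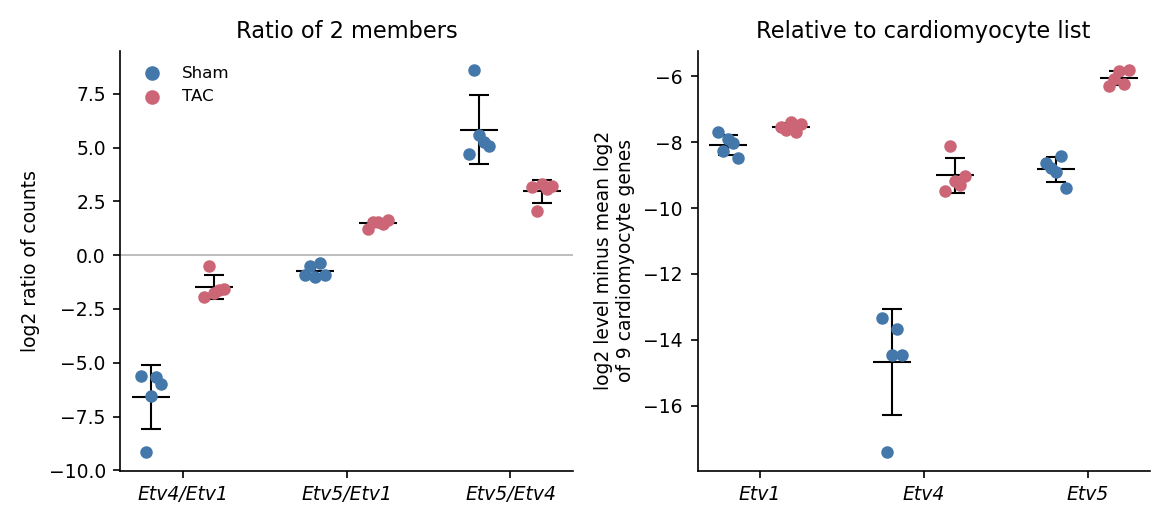
Left, log2 ratio of the counts of 2 members in each library; right, log2 level of each member minus the mean log2 level of 9 cardiomyocyte genes. Points are libraries and bars the mean and SD; the Etv5 to Etv1 ratio crosses 0 between Sham (-0.75) and TAC (1.48), and Etv1 relative to cardiomyocyte genes is slightly higher in TAC (-7.53) than in Sham (-8.08).

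The other ETS genes went both ways. Of 24 listed, 16 were tested, of which 6 were higher, 4 lower and 6 not called. The groups did not overlap for 5 of the higher and 3 of the lower ones. Over all tested genes 28.9% were higher and 27.9% lower, and the groups did not overlap for 21.5% and 20.2%. The median of the 16 was 0.25 against 0.01 over all genes. Spi1 (PU.1), which drives the macrophage lineage, went from 4.31 ± 1.29 to 13.9 ± 2.87 CPM (SD, n = 5; log2 fold change 1.68, SE 0.22, adjusted p = 6.0e-05), alongside the macrophage genes above. Elf4 went from 12.1 ± 2.12 to 26 ± 4.66 CPM (1.10, SE 0.15, adjusted p = 0.00010). Elk3, a serum response factor partner, Ets1 and Erg, both expressed in endothelium, and the repressor Etv6 were higher by 0.58, 0.53, 0.43 and 0.30. Gabpa, the GA-binding protein that supports genes of mitochondrial respiration, went from 66.2 ± 3.11 to 47.3 ± 3.01 CPM (-0.49, SE 0.06, adjusted p = 6.7e-05) and the repressor Etv3 from 36.7 ± 1.95 to 25.3 ± 2.70 (-0.54, SE 0.08, adjusted p = 0.00022). Ets2 and Elf2 were lower by values of -0.51 and -0.27. Scaled by total count alone, 12 were higher and none of the 4 kept its lower call, Gabpa standing at -0.13 and Etv3 at -0.17; Etv1 lost its call in the same way. Among the 19 tested ETS genes, members included, Etv5 moved from the 15th highest level per kb in Sham to the 6th in TAC, Etv4 from the 19th to the 17th and Etv1 from the 14th to the 18th. Over all exons joined, the Sham ranks were the 14th, the 18th and the 16th, and the TAC ranks were as before. Of the 16 other ETS genes tested, none had a log2 fold change as large as that of Etv4, and Spi1 alone exceeded Etv5.

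**Figure D3:**
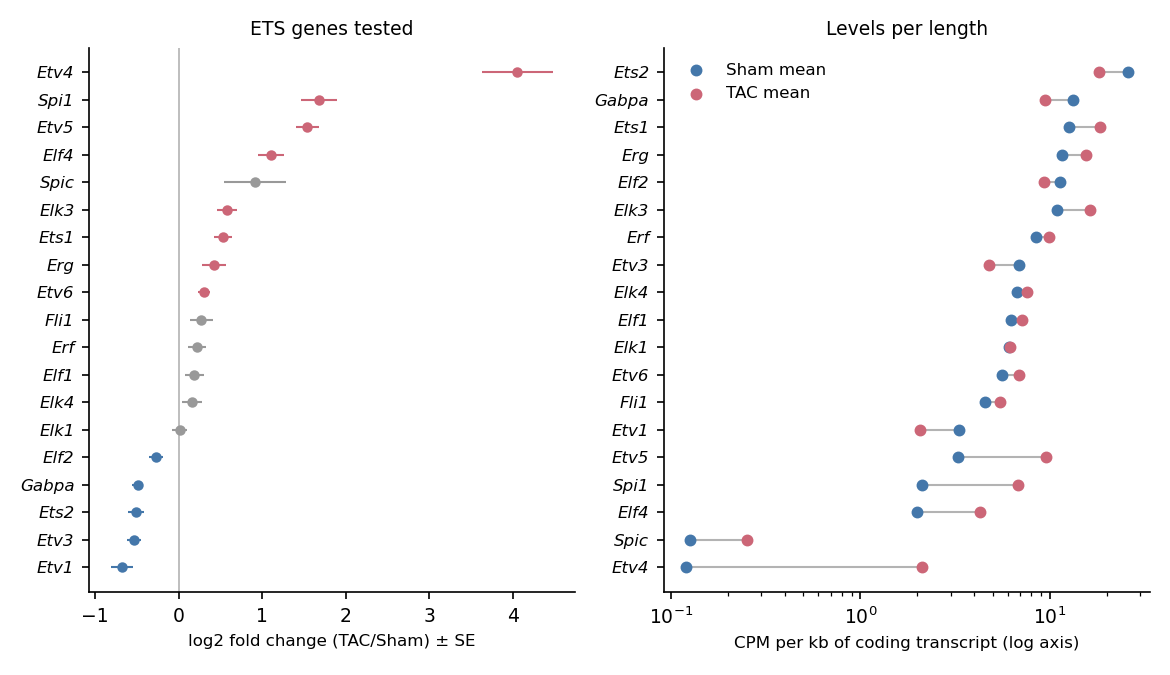
Left, log2 fold change (TAC over Sham, bars SE) of the 19 tested ETS genes, red where called higher, blue where called lower and grey where not called; right, mean CPM per kb in Sham and TAC on a log axis. Etv4 (4.06), Spi1 (1.68) and Etv5 (1.54) lie at the top and Etv1 (-0.68) at the bottom.

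Upstream of ERK, Nrg1 and Ereg of the EGF family changed most among the tested EGF-family and FGF ligands, and Fgf10 came next (-3.78). Of 11 EGF-family ligands listed, 8 were tested, with 2 higher (28.9% of all tested genes were), 2 lower (27.9% were) and a median of 0.01. Neuregulin 1 (Nrg1), the ligand of Erbb3 and Erbb4, measured 4.28, 2.49, 2.07, 3.25 and 1.09 CPM in Sham and 61.7, 55.8, 55.8, 104 and 89.3 CPM in TAC. Every TAC library was far above the highest Sham library (log2 fold change 4.83, SE 0.33, adjusted p = 1.7e-06). Epiregulin (Ereg), a ligand of Egfr and Erbb4, had 22 reads over the Sham libraries and 660 over the TAC libraries (0.198 ± 0.134 and 3.46 ± 0.886 CPM, SD, n = 5; 4.26, SE 0.41, adjusted p = 7.9e-06). Like Etv4, Ereg passed the filter on low counts through TAC, its Sham median being 0.186 CPM against the filter's 0.309 CPM. Egf itself went from 16.2 ± 2.05 to 4.29 ± 0.867 CPM (-1.92, SE 0.16) and Nrg4 from 2.13 to 0.917 CPM (-1.22, SE 0.28, adjusted p = 0.0031). Heparin-binding EGF (Hbegf) spread widely in Sham (75.2 ± 61.7 CPM against 46.3 ± 11.1 in TAC, SD, n = 5) and was not called (adjusted p = 0.24).

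The neuregulin receptors did not follow their ligand. Erbb4 went from 185 ± 21.7 to 69.2 ± 10.5 CPM (SD, n = 5; -1.42, SE 0.12, adjusted p = 3.4e-06) and Erbb3 from 35.1 ± 5.89 to 18.2 ± 1.78 CPM (-0.95, SE 0.12). The co-receptor Erbb2, at 30.5 ± 6.87 and 30.6 ± 4.99 CPM (SD, n = 5; adjusted p = 0.98), and Egfr, at 13.4 and 13.1 CPM (adjusted p = 0.82), were not called. Of the 4 receptors 2 were lower (27.9% of all tested genes were) and 2 not called, with a median of -0.49.

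FGF ligands gave 1 higher, 2 lower and 4 not called of 7, with a median of -0.14. Over all tested genes 28.9% were higher and 27.9% lower. Fgf10, a mesenchymal ligand of Fgfr2, went from 4.0 ± 1.13 to 0.296 ± 0.217 CPM (SD, n = 5; -3.78, SE 0.45, adjusted p = 3.8e-05). It passed the filter on low counts through Sham, as its TAC libraries ran from 0.0498 to 0.587 CPM against the filter's 0.309 CPM. The calls of Fgf9 (1.16, SE 0.43, adjusted p = 0.035) and Fgf18 (-0.61, SE 0.22, adjusted p = 0.034) did not hold without single libraries. Fgf9 lost its call without any one of Sham libraries 1, 2 and 3 and TAC libraries 3, 4 and 5 (adjusted p up to 0.084), and Fgf18 without any one of Sham libraries 1 and 3 and TAC libraries 1, 3, 4 and 5 (adjusted p up to 0.086). Of 6 receptors (Fgfr1 to Fgfr4, Fgfrl1 and Ret), 3 were higher and 1 lower. Fgfr2 went from 2.34 ± 0.206 to 11.6 ± 2.71 CPM (SD, n = 5; 2.32, SE 0.18, adjusted p = 2.0e-06), Fgfr4 rose at a level below 1 CPM (1.74, adjusted p = 0.015; 0.051 without the shallow Sham libraries 1 and 2) and Fgfr1 rose by 0.37 (adjusted p = 0.017). Fgf9 (0.128 to 0.901 CPM in Sham) and Fgfr4 (0 to 0.283 CPM in Sham) passed the filter on low counts through TAC. Ret, the GDNF receptor, which acts through Etv4 and Etv5 in the developing kidney, went from 5.63 ± 1.34 to 1.58 ± 0.762 CPM (-1.84, SE 0.34, adjusted p = 0.00078).

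The 20 genes between receptor and ERK, and its kinases beyond, showed changes in both directions. Of these 5 were higher (28.9% of all tested genes were), 6 lower (27.9% were) and 9 not called, with a median of 0.01. Nras rose by 0.69 (SE 0.06, adjusted p = 5.4e-06), and Mapk3, which encodes ERK1, by 0.38. The largest rise was that of Rps6ka2, by 0.80 (SE 0.23, adjusted p = 0.010), though its groups overlapped. The adaptor Grb2 was lower, with a value of -0.55. Rps6ka5 (MSK1), a chromatin kinase that ERK activates, changed most, from 42.9 ± 3.17 to 14.2 ± 2.70 CPM (SD, n = 5; -1.60, SE 0.12, adjusted p = 2.0e-06). The counts of this list depended on the scaling: by total count alone 14 were higher and 3 lower.

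Genes that ERK signalling is known to induce, and that act back on it, included several that were higher. Of 12, 7 were higher (28.9% of all tested genes were), 2 lower (27.9% were) and 3 not called, and the median was 0.64. The groups did not overlap for 7 higher and 1 lower, where over all tested genes the shares were 21.5% and 20.2%. Dusp6, the ERK-specific phosphatase, measured 30.7, 31.7, 26.3, 26.6 and 22.3 CPM in Sham and 50.9, 44.6, 65.8, 44.5 and 68.5 in TAC. Every TAC library was above every Sham library (log2 fold change 1.0, SE 0.14, adjusted p = 0.00014). The RAS inhibitor Spred1 went from 39.1 ± 1.21 to 73.5 ± 9.01 CPM (SD, n = 5; 0.91, SE 0.09, adjusted p = 6.8e-06). Spry4, a Sprouty inhibitor, went from 13.8 ± 1.61 to 19.6 ± 1.94 CPM (0.50, SE 0.10, adjusted p = 0.0014). Phlda1 went from 7.63 ± 1.44 to 26.3 ± 6.89 CPM (1.78, SE 0.20, adjusted p = 2.3e-05), with 33.0% of its exon bases shared with Gm28592, and Spred3, Dusp4 and Spry1 rose by 0.93, 0.88 and 0.77, with 24.4% of Spry1's exon bases shared with Gm42922. In the opposite direction, the phosphatase Dusp5 went from 23.9 ± 9.44 to 7.31 ± 1.41 CPM (-1.71, SE 0.24), with 22.1% of its exon bases shared with another annotated gene, and the EGF receptor inhibitor Errfi1 changed by -1.10 (SE 0.28, adjusted p = 0.0057). These transcripts are a readout of RNA only, and no measure of ERK activity was analysed here.

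The regulators of PEA3 factors themselves went both ways, and the balance depended on the scaling. Of 12, 2 were higher (28.9% of all tested genes were), 7 lower (27.9% were) and 3 not called, with a median of -0.22. By total count alone 5 were higher and 1, Trib1, lower. Cic measured 90.9 ± 7.17 CPM in Sham and 88.4 ± 10.6 in TAC (SD, n = 5; -0.04, adjusted p = 0.73). Scaled by total count alone its value turned to 0.32 (adjusted p = 0.028). Its partners differed: Atxn1 went from 29.9 to 22.9 CPM (-0.39, SE 0.09, adjusted p = 0.0032), and Atxn1l was not called (adjusted p = 0.74). Of the ligase, the COP1 gene, listed as Rfwd2, was not called (38.5 and 35.4 CPM, adjusted p = 0.30), Ddb1 rose by 0.33 (SE 0.08, adjusted p = 0.0036), and Det1, Cul4a and Rbx1 were called lower. Trib1, a pseudokinase that binds COP1, went from 77.7 ± 30.3 to 25.1 ± 2.27 CPM (SD, n = 5; -1.63, SE 0.25, adjusted p = 0.00024) and its relative Trib2 rose by 0.57 (SE 0.14, adjusted p = 0.0042). The acetyltransferases Ep300 and Crebbp, coactivators of these factors, had log2 fold changes of -0.49 and -0.58. By total count alone Atxn1, Det1, Cul4a, Rbx1, Ep300 and Crebbp were no longer called lower.

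**Figure D4:**
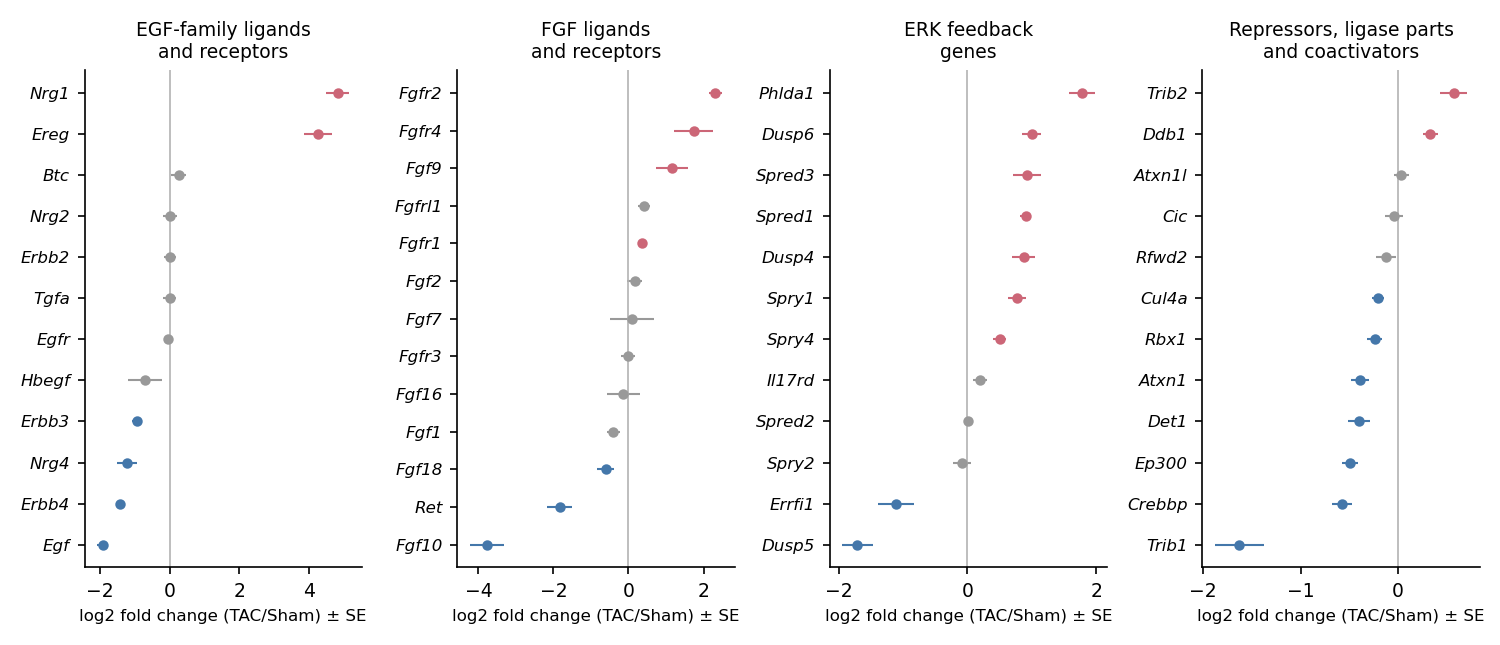
Log2 fold change (TAC over Sham, bars SE) of the tested EGF-family ligands and receptors, FGF ligands and receptors with Ret, ERK feedback genes, and Capicua, COP1 ligase and coactivator genes; red is called higher, blue called lower, grey not called. Nrg1 (4.83) stands far to the right of its receptors Erbb3 (-0.95) and Erbb4 (-1.42). Ereg (4.26) stands far to the right of Erbb4 and of Egfr (-0.03, grey), and 7 of the 12 feedback genes are red.

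The genes of fast conduction, the programme with which Etv1 is associated in atrium, included many that were lower. Of 14 listed 13 were tested, with 1 higher (28.9% of all tested genes were), 7 lower (27.9% were) and a median of -0.58. Gja5, which encodes connexin 40, measured 167, 186, 157, 179 and 108 CPM in Sham and 83.3, 52.4, 86.9, 63.2 and 109 in TAC. Sham library 5 and TAC library 5 overlapped, and the other 4 of each group did not (log2 fold change -1.01, SE 0.20, adjusted p = 0.0012). The sodium channel subunit Scn4b (-3.65), the channel Scn10a (-2.43), the potassium channel Kcna5 (-1.40), Gja1 (connexin 43, -0.54), the atrial and conduction factor Tbx5 (-0.81) and Hopx (-1.96, with 27.2% of its exon bases shared with Hopxos) were called lower. The cardiac factor Nkx2-5 was not called, at 80.6 ± 8.99 and 84.5 ± 5.08 CPM (SD, n = 5; adjusted p = 0.52), and Id2 was higher by 0.65 (SE 0.15). The cardiomyocyte genes, of which 9 of 9 were lower with a median of -1.12, moved with this list, and their part in it was not tested. Slow conduction and pacemaker genes were mixed, with 4 higher and 3 lower of 10 tested (28.9% and 27.9% over all tested genes) and a median of 0.03. There were 2 higher without Sham library 1 or without Sham library 2, and 1 lower without TAC library 5. Among them Gjc1 (connexin 45) rose by 1.14 and the calcium channel Cacna1h had a value of -1.48.

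Genes with profiles most like each member over the 10 libraries were found among 11551 tested genes whose log2 CPM averaged 1 or more, by the root mean square (RMS) difference of centred log2 CPM. Each named gene is chosen for its likeness, so its own difference between groups is a description. For Etv1 the 5 closest were Kcnh2, which encodes the HERG potassium channel (RMS 0.101), Ppp1r26 (0.108), Supv3l1, a mitochondrial RNA helicase (0.114), Gpld1 (0.128) and Ears2, the mitochondrial glutamyl-tRNA synthetase (0.133), against a median RMS of 0.449 over all candidates. For Etv4 they were Uhrf1, which maintains DNA methylation through replication (0.558), Clspn, a replication checkpoint gene (0.582), the matrix genes Thbs4 (0.587) and Tnc (0.607), and the DNA repair gene Brca1 (0.633), against a median of 2.24. For Etv5, 4 of the 5 closest were Fam111a (0.107), the interferon-induced Ifit2 (0.141), Sardh (0.177) and the macrophage receptor Fcgr3 (0.184), against a median of 0.843. The closest matches of Etv4 were less close in absolute terms than those of Etv1 and Etv5, and Etv4 had the fewest reads of the 3.

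Across 22 other ways of processing, Etv4 kept a log2 fold change between 3.82 and 4.43 and Etv5 one between 1.44 and 1.90, and both were called in each. Etv1 lay between -0.74 and -0.33 and was called in 21 of the 22, the exception being scaling by total count alone. Relative to the cardiomyocyte genes, Etv1 was higher in TAC by 0.43 to 0.64 over the settings tried for that measure.

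**Figure D5:**
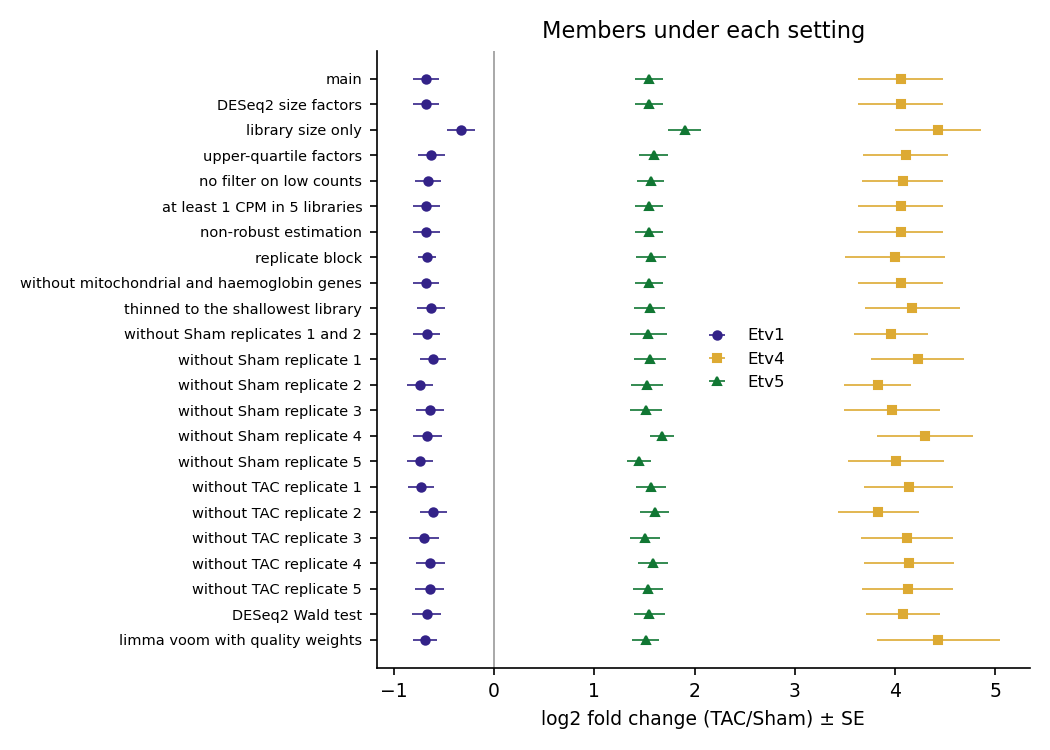
Log2 fold change (TAC over Sham, bars SE) of Etv1, Etv4 and Etv5 in the analysis used and under 22 other settings, 1 per line. The order Etv4, Etv5, Etv1 is the same on every line, and the Etv1 value nearest 0 is the -0.33 with library size only.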

How the data were processed

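RNA was sequenced in bulk in 10 libraries, grouped as Sham or TAC by their titles. The authors deposited raw counts per gene symbol, 1 table per library, without normalization; STAR, bcl2fastq and the build mm10 are named, without versions, per the submitters' processing notes, while for the counter, its strand setting and its gene models a name is not given in the sources used here. Depth ran from 17117306 to 43956384 counts, lowest in Sham libraries 1 and 2 (17117306 and 17154462), and 5 tallies that name no gene (25.9 to 29.1% of reads) were left out. Mitochondrial genes took 14.6 to 17.4% of counts in Sham and 9.31 to 14.2% in TAC, and TMM factors were 0.812 to 0.942 in Sham and 1.05 to 1.19 in TAC. Of 48397 symbols, 46295 (95.7%) matched 1 gene of GENCODE M21 (GRCm38), which gave coordinates, lengths and overlaps.

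The main test was edgeR 4.0.16 (R 4.3.3): TMM factors, filterByExpr, robust quasi-likelihood fit, group as the only term, 15175 genes, Benjamini-Hochberg adjustment; the script was tested on simulated data. Within-library ratios (0.5 added to counts) were compared by exact permutation over all regroupings, in Python 3.11.15 with scipy 1.17.1. Levels are mean ± SD over 5 libraries. The members and the gene lists were chosen with earlier results of these data known. Named besides the 3 members were up to 4 called members of each list with the smallest adjusted p, up to 2 of the rarer direction, a preset group (Gja5, Nkx2-5, Nrg1, Erbb2, Erbb3, Erbb4, Cic, Dusp6, Spry4) and the 5 closest profiles of each member; other names were chosen after their values were seen, and a few genes that the rule takes are not reported here. Alternatives were other scalings, filters, DESeq2 1.42.0, limma 3.58.1, thinning to the shallowest library, a replicate block, and leaving out libraries. No 2 libraries agreed within sampling noise.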

Additional observations from a re-analysis of the deposited data

Results flagged for a closer look

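A library was singled out when its gap to the nearest other library of its group was over 0.71 of the group's range. Of 140 groups screened, 15 were singled out, and chance alone gives about 1 in 20. TAC library 2 had the highest Etv4 level of its group, 8.22 CPM, where the other 4 were at 4.17 to 4.35. The same library gave the highest log2 ratio of Etv4 to Etv1 in TAC (-0.50, others -1.94 to -1.56), the lowest of Etv5 to Etv4 (2.03, others 3.06 to 3.32), and the highest Fgf18 (3.81 CPM, others 1.79 to 2.24) and Thbs4 (29.6 CPM, others 7.87 to 13.7). Sham library 2, with 0 Etv4 reads, gave a log2 ratio of Etv4 to Etv1 of -9.13 (others -6.56 to -5.63), of Etv5 to Etv4 of 8.61 (others 4.68 to 5.56), and an Etv4 level relative to the cardiomyocyte genes of -17.40 (others -14.47 to -13.33).

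TAC library 4 was highest for Ep300 (68.8 CPM, others 51.6 to 56.1), TAC library 3 was highest for Fgfr4 (0.799 CPM, others 0.411 to 0.486) and TAC library 1 was lowest for Ddb1 (424 CPM, others 481 to 496). In Sham, library 3 was highest for Scn4b (54.4 CPM, others 14.3 to 25.4) and Cacna1d (15.6 CPM, others 6.52 to 8.57), library 5 for Dusp5 (40.4 CPM, others 17.7 to 23.1) and library 1 for Tnc (1.99 CPM, others 0.383 to 0.696).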

How the results depend on the processing

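With library size only, Etv1 was -0.33 (adjusted p = 0.058), Cic turned to 0.32, and calls over all genes went from 4383 higher and 4233 lower to 7741 and 1929, with a median difference of 0.37. List counts then were 12 higher and 0 lower for other ETS genes, 1 higher for EGF receptors, 2 higher and 1 lower for FGF ligands, 14 and 3 for the ERK cascade, 5 and 1 for the regulators, 3 higher for fast conduction and 1 lower for slow conduction. FGF ligands had 0 higher with a filter of at least 1 CPM or without Sham libraries 1 and 2, and 1 lower with no filter or with thinned counts; leaving out 1 library gave 0 to 1 higher and 1 to 2 lower. Slow conduction had 2 higher without Sham libraries 1 and 2, and leaving out 1 library gave 2 to 4 higher and 1 to 3 lower (2 higher without Sham 1 or Sham 2, 1 lower without TAC 5). Over all exons, Etv5 over Etv1 per kb was 1.95 in Sham and 9.11 in TAC, a length chosen after seeing the data. Of 61 named genes other than the members, 47 kept their side of the threshold under each of the alternatives run.

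Libraries with the same number did not deviate together (correlations -0.04 to 0.08). That gave no sign of a pairing by number, though with 5 libraries per group it cannot exclude one. With the replicate block, edgeR gave -0.67 for Etv1, 4.0 for Etv4 and 1.57 for Etv5, all called, and 4103 higher and 3917 lower genes. For the ratios the block left 5 pairs, whose smallest exact p is 0.0625, and all 6 reached it: 5.11, 2.23 and -2.88 for Etv4 to Etv1, Etv5 to Etv1 and Etv5 to Etv4, and 0.54, 5.66 and 2.78 for Etv1, Etv4 and Etv5 relative to cardiomyocyte genes. Depth limits Etv4 most, with 40 reads in Sham.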
